A study of Mus musculus with 8 samples.

Results

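The annexins, the S100 proteins and *Ahnak* described here are 10 named genes of the 48321 in the count tables, namely *Anxa1*, *Anxa2*, *Anxa4*, *Anxa5*, *Anxa6*, *S100a4*, *S100a6*, *S100a10*, *S100a11* and *Ahnak*. They were taken by symbol, and the list was selected on measured values, the CPM of these same libraries between the genotypes and the days. Levels, differences and calls of these 10 genes are therefore a description of where they fell among all genes, and they support no statement about the list. All 10 passed the filter on low counts. RNA of CD8+ T cells, the cytotoxic lineage of T lymphocytes, was sequenced in 8 libraries from the spleens of C57BL/6 mice. The 4 groups were WT and KO at day 0 and at day 5, with 2 libraries in each, and the day 5 cells had been cultured in vitro. The series gives the KO mice as Satb1 F/F; E8I-cre, in which a recombinase active in mature CD8 lineage cells removes floxed *Satb1*, the gene of a genome organiser of T lineage cells. The stimulus of the culture, the *Cre* status of the WT mice and the number of animals behind a library are not given in the sources used here.

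Annexins are cytosolic proteins that bind acidic phospholipids of membranes when calcium is present, and S100 proteins are small calcium-binding proteins that dock onto annexins and other targets. ANXA2 pairs with S100A10, an S100 protein that has lost the ability to bind calcium, and the giant scaffold protein AHNAK joins them in a complex under the plasma membrane that takes part in membrane repair, calcium entry and the surface activation of plasminogen. In CD8+ T cells, transcripts of several of these genes are known to be low in naive cells and higher in effector and memory cells.

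Total counts were between 4170126 and 6180044 in 7 libraries and 11117971 in replicate 1 of KO at day 0. *Satb1* itself went against the label at day 0, at 97.8 and 91.6 CPM (counts scaled to 1000000 per library) in WT and 144 and 125 CPM in KO. At day 5 it was 96.5 and 116 CPM in WT and 56.5 and 62.3 CPM in KO. In the fit described below, the log2 fold change of KO against WT was 0.51 at day 0 and was not called (edgeR FDR 0.125). That at day 5 was -0.84 and was called (edgeR FDR 0.0162). Gene counts hold no value per exon, so loss of the floxed part was not analysed here, and KO is used below for the libraries labelled KO. Summed markers of CD8+ T cells were between 15650 and 16730 CPM at day 0, and at day 5 between 10490 and 10900 CPM in WT and between 12050 and 12150 CPM in KO. The 2 markers of helper T cells summed to at most 2.998 CPM in any library, 3 of natural killer cells to at most 4.76 CPM and 3 of erythroid cells to at most 0.678 CPM. The B cell list was between 1460 and 2444 CPM through *Ighm*, with *Cd79b* between 66.7 and 163.9 CPM, higher in both KO libraries than in both WT libraries at each day but not called, and *Ms4a1* at most 0.367 CPM. The stromal and endothelial list was between 91.6 and 393.9 CPM, nearly all of it *Pecam1*.

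The stretches upstream of the transcription start are shown for the genes whose levels are compared most below, because *S100a4* and *S100a6* had few or no counts before culture, whereas *Anxa2*, *Ahnak* and *S100a11* were detected in every library. Sequences are from RefSeq (GRCm38.p6), 5′ to 3′ on the + strand on which all 5 genes lie. A window was given for 8 of the 10 genes. None was given for *Anxa6* and *S100a10*, which had the highest levels per kb of exon before culture. Capitals mark TATAAA, the TATA box, TGANTCA, the AP-1 motif, and GGGCGG, the GC box, each on either strand, and none of the marked matches overlap. *S100a4* is shown at chr3:90603520-90603769, *S100a6* at chr3:90612644-90612881, *Anxa2* at chr9:69453433-69453619, *Ahnak* at chr19:8989034-8989283 and *S100a11* at chr3:93520246-93520487.
S100a4: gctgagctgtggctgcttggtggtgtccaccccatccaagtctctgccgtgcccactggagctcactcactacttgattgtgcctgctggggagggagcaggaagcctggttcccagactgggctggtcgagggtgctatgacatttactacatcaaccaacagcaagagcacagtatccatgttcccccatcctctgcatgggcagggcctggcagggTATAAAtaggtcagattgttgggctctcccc
S100a6: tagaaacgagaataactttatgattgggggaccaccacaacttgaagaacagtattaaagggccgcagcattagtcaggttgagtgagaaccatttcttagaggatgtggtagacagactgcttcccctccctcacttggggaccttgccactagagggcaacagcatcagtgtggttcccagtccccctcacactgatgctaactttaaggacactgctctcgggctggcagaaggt
Anxa2: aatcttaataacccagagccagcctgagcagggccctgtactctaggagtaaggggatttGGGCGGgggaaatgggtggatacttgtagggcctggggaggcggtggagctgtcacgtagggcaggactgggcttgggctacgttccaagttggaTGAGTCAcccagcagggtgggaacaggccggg
Ahnak: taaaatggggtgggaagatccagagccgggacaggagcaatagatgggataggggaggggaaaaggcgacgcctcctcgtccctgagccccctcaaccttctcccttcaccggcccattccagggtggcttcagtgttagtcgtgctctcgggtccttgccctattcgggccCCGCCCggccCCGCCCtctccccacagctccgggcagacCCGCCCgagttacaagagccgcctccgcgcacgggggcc
S100a11: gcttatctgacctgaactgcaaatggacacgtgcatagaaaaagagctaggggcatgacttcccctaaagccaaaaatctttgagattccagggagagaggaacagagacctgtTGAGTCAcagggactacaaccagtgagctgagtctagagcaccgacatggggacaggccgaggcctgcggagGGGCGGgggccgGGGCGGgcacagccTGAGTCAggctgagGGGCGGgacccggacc

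In the 250 bases before its RefSeq start, *S100a4* held 2 CpG dinucleotides and *S100a6* held 3. *Anxa1*, the other gene with under 2 CPM in every library before culture, held 2. *Anxa2* held 9, *S100a11* 11, *Anxa5* 13 and *Ahnak* 18. The upstream one of the windows of *Anxa4* held 13 and the other 2. Over 32851 windows of the same length the median was 6, with quartiles of 2 and 16, and 37.8% of windows held 3 or fewer. TATAAA was present in 12.4% of all windows and, among these genes, in *S100a4*, *Anxa1* and *Anxa2*, where its first base lay 31, 32 and 17 bases upstream. The match of *Anxa2* falls in 63 bases that are left out above because the GENCODE gene has already begun there. TGANTCA, present in 6.75% of windows, was found in *Anxa2* 95 bases upstream and in *S100a11* 136 and 38 bases upstream. GGGCGG, present in 32.7% of windows, was found 3 times each in *Anxa2*, *S100a11* and *Ahnak*. In *Anxa2*, 2 of the 3 also fall in the 63 bases left out. A match describes these letters only.

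Before culture, the genes of the ANXA2 complex were at very different levels, and *Anxa2* had the largest difference between the genotypes among the 3 members called. *Anxa2* (chr9:69453620-69491795, + strand) was at 24.0 and 46.1 CPM in WT and at 252 and 249.8 CPM in KO. The KO libraries lay close together and far above both WT libraries, which differed from each other 1.92-fold. The fitted log2 fold change of KO against WT at day 0 was 2.85 (SE 0.23), a 7.23-fold difference (edgeR FDR 4.27e-05, the Benjamini-Hochberg adjusted p over 12597 genes). It was called, that is, it had an FDR under 0.05, under all 16 alternatives, with log2 fold changes between 2.44 and 3.38. A lower level in a bulk sample can come from fewer cells that express a gene or from less RNA per cell, and these cannot be told apart here.

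*S100a10* (chr3:93555080-93564643, + strand), the partner of ANXA2, was at 277 and 230.2 CPM in WT at day 0 and at 342 and 326 CPM in KO. The groups did not overlap, and the difference of 0.40 on the log2 scale (SE 0.12) was not called (edgeR FDR 0.158). *Ahnak* (chr19:8989284-9076914, + strand), the scaffold gene, was at 69.2 and 76.9 CPM in WT and at 112 and 117 CPM in KO. Both KO libraries lay above both WT libraries. The difference was 0.65 on the log2 scale (SE 0.13, edgeR FDR 0.0243). This call of *Ahnak* was lost without any single library of WT at day 0, KO at day 0 or KO at day 5, where the log2 fold change was between 0.57 and 0.72, and under an offset that corrects for GC content and length, where it was 0.52. The FDR lay between 0.00196 and 0.262 over the alternatives.

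**Figure D1:**
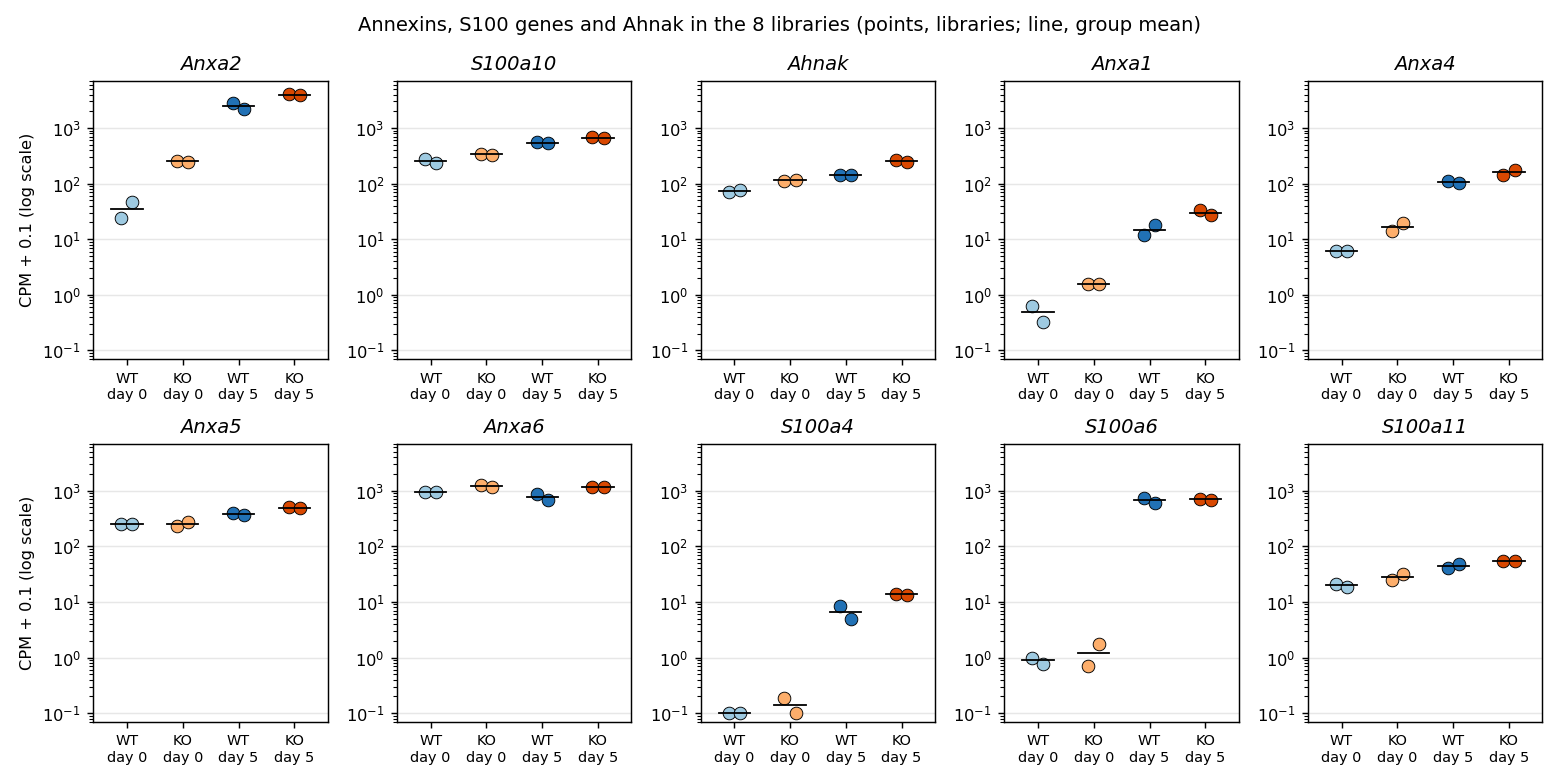
CPM plus 0.1 on a log axis for the 10 genes, with a point for each of the 8 libraries and a line at the mean of each group. *Anxa2* stands at 24.0 and 46.1 CPM in WT and 252 and 249.8 CPM in KO at day 0, and *S100a4* and *S100a6* stand under 2 CPM in all day 0 libraries and far higher in all day 5 libraries.

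Of the other annexins, *Anxa4* was the only one called between the genotypes at day 0. *Anxa4* (chr6:86736840-86793584, - strand), an annexin abundant in epithelial cells, was at 6.08 and 6.11 CPM in WT and at 13.98 and 19.1 CPM in KO. Both KO libraries lay above both WT libraries, with a log2 fold change of 1.41 (SE 0.23, edgeR FDR 0.00769). The call was lost without replicate 1 of WT at day 0 (FDR 0.135) or without replicate 2 (FDR 0.11), with the log2 fold change of *Anxa4* at 1.41 in both fits, in which the calls over all genes fell from 227 to 38 and 49. The FDR ranged from 3.15e-06 to 0.135 over the alternatives. *Anxa1* (chr19:20373428-20390944, - strand), whose protein limits inflammation through formyl peptide receptors, had 3 and 1 counts in WT and 17 and 8 counts in KO, or 0.537, 0.226, 1.46 and 1.47 CPM. The ratio of KO to WT was 3.66, with an exact 95% counting interval of 1.26 to 14.5 that covers counting error only, and the difference was not called (edgeR FDR 0.201). Its fitted log2 fold change was 1.82, and 2.59 or 1.41 without replicate 1 or replicate 2 of WT at day 0.

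*Anxa6* and *Anxa5* were the annexins with the highest levels per kb of exon before culture. *Anxa6* (chr11:54979108-55033445, - strand), an annexin with a duplicated core that acts at membranes and in cholesterol traffic, was at 965 and 940.2 CPM in WT and at 1256 and 1162 CPM in KO. The groups did not overlap, but the difference of 0.34 on the log2 scale (SE 0.12) was not called (edgeR FDR 0.216). It was called only without replicate 2 of WT at day 5 (FDR 0.0479), in a range of 0.0479 to 0.545. *Anxa5* (chr3:36448923-36475894, - strand), whose protein binds phosphatidylserine and is used to stain dying cells, was at 249 and 250.3 CPM in WT and at 231 and 273 CPM in KO. Its groups overlapped, with a log2 fold change of 0.01 (SE 0.12, edgeR FDR 0.982).

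The other S100 genes were lower than *S100a10* per kb of exon before culture, and none of them was called between the genotypes. *S100a11* (chr3:93520488-93526287, + strand), the partner of ANXA1, was at 20.7 and 18.5 CPM in WT and at 24.8 and 31.9 CPM in KO. The groups did not overlap, and the log2 fold change was 0.51 (SE 0.19, edgeR FDR 0.252). *S100a6* (chr3:90612882-90624181, + strand), also called calcyclin, had 5 and 3 counts in WT and 7 and 9 counts in KO. Its groups overlapped in CPM, and the ratio of KO to WT was 1.17 (exact 95% counting interval 0.473 to 3.16). *S100a4* (chr3:90603771-90606045, + strand), whose protein binds non-muscle myosin, had no count in either WT library and 1 count in the KO libraries together, so no fold is given.

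At day 0, 3 of 10 genes were called higher in KO and 0 lower, where 1.8% of all 12597 genes were called in either direction, 0.913% higher and 0.889% lower. The median log2 fold change was 0.51 over the 9 genes other than *S100a4* (0.58 with the fitted value of *S100a4*, 0.46 with *S100a4* at no change) and -0.0017 over all genes. The libraries of KO and WT did not overlap for 7 of the 10, all higher in KO, where 43.4% of all genes did not overlap in either direction and 21.7% were higher in KO. Among markers of the same libraries, the summed level of 5 naive T cell genes was 5764 to 5929 CPM in WT and 4895 to 5264 CPM in KO at day 0. That of 10 memory and effector genes was 2500 to 2596 CPM in WT and 2611 to 2799 CPM in KO, most of it *Nkg7*, at 2154 and 2244 CPM in WT and 1940 and 2187 CPM in KO. Within these lists *Ccl5*, a chemokine of memory CD8+ T cells, and *Il2rb*, a receptor chain for IL-2 and IL-15, were called higher in KO at log2 fold changes of 2.78 and 1.10, and *Igfbp4* and *Dapl1*, genes of naive T cells, were called lower at -1.50 and -0.80; the other genes of both lists were not called, and these 4 are named after their values were seen. Of the uncalled memory and effector genes, *Cd44* (-0.23), *Nkg7* (-0.09) and *Itgb1* (-0.06) had fitted differences below 0. The summed myeloid list was 13.4 to 22.2 CPM in WT and 12.9 to 20.0 CPM in KO, with *S100a9* at 0 in every library. The part of these cell states in the differences of the annexins was not tested.

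After 5 days in culture *Ahnak* and *Anxa6* were the genes called between the genotypes among the 10. *Ahnak* was at 146 and 145 CPM in WT and at 265 and 241 CPM in KO. The KO libraries lay well above the WT libraries, at a log2 fold change of 0.80 (SE 0.12, edgeR FDR 0.0078). Without replicate 1 or replicate 2 of KO at day 5 the log2 fold change was 0.73 or 0.86 and the FDR 0.104 or 0.08, in a range of 1.3e-05 to 0.104. *Anxa6* was at 856 and 691 CPM in WT and at 1157 and 1160.3 CPM in KO, for a log2 fold change of 0.58 (SE 0.12, edgeR FDR 0.0313). Its call was lost with only the 4 libraries compared, under the same offset, and without either WT library of day 0, replicate 2 of WT at day 5 or either KO library of day 5, with FDR between 0.000948 and 0.249 over the alternatives. In the fits that lost the call, the log2 fold change of *Anxa6* was 0.44 under the offset and without replicate 2 of WT at day 5, and between 0.57 and 0.58 in the others.

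*Anxa2* no longer stood out between the genotypes at day 5. It was at 2862 and 2216 CPM in WT and at 4016 and 3891 CPM in KO. The groups did not overlap, and the log2 fold change of 0.64 (SE 0.20) was not called (edgeR FDR 0.149), although it was with no filter on low counts (FDR 4.01e-05, in a range up to 0.504). *S100a10* was at 559.6 and 535 CPM in WT and at 696 and 650.4 CPM in KO, where the log2 fold change was 0.30 (SE 0.12, edgeR FDR 0.282).

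*Anxa1* was at 11.8 and 17.6 CPM in WT and at 33.1 and 27.1 CPM in KO at day 5. Its groups did not overlap, and the log2 fold change was 1.04 (SE 0.27, edgeR FDR 0.0751). The edgeR 4 form called it, as did the fit with no filter on low counts, in an FDR range of 0.0339 to 0.453. *Anxa4* was at 112 and 103 CPM in WT and at 145 and 175 CPM in KO, where the log2 fold change was 0.58 (SE 0.16, edgeR FDR 0.117). *Anxa5* was at 395 and 365 CPM in WT and at 506 and 483 CPM in KO, where the log2 fold change was 0.38 (SE 0.12, edgeR FDR 0.156). None of these 3 annexins was called, and for none did the groups overlap.

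For *S100a4* the WT libraries of day 5 had 47 and 20 counts and the KO libraries 75 and 70, or 8.29 and 4.82 against 13.8 and 13.3 CPM. The groups did not overlap, and the log2 fold change was 1.02 (SE 0.38, edgeR FDR 0.23). *S100a11* was at 40.04 and 47.2 CPM in WT and at 55.2 and 55.3 CPM in KO, where the log2 fold change was 0.34 (SE 0.18, edgeR FDR 0.433). *S100a6*, in contrast, was at 739 and 609 CPM in WT and at 710.02 and 689 CPM in KO. Its groups overlapped, with a log2 fold change of 0.05 (SE 0.15, edgeR FDR 0.923). Those of the other 9 genes did not, with KO higher, where 45.6% of all genes did not overlap in either direction and 25% were higher in KO.

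**Figure D2:**
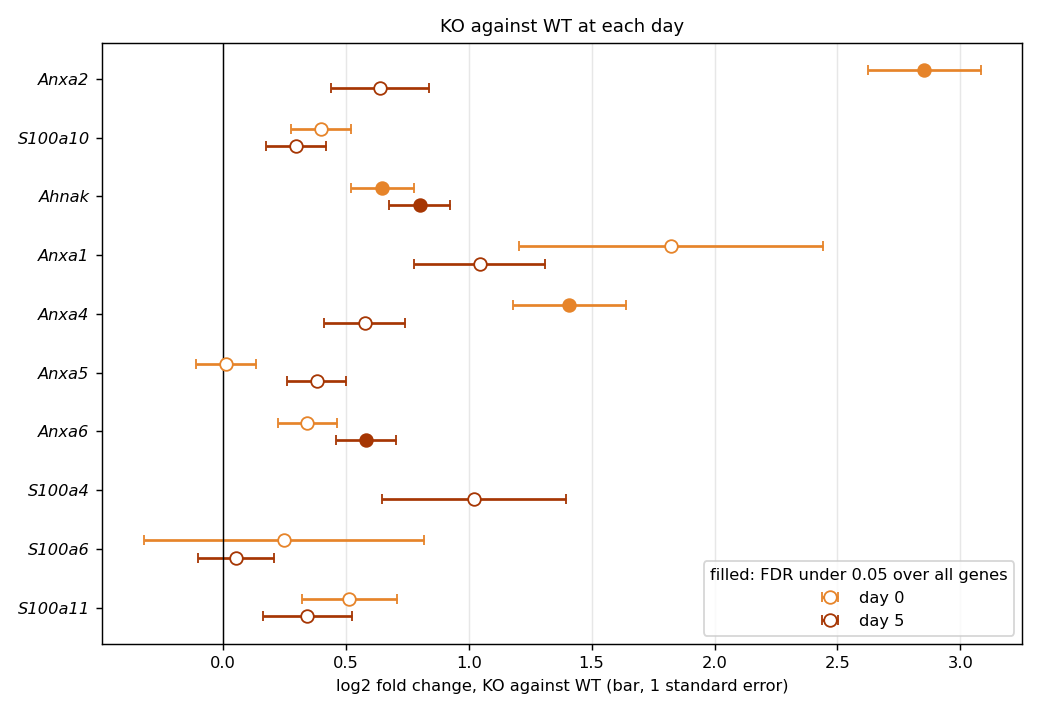
Fitted log2 fold change of KO against WT at day 0 (orange) and day 5 (brown), with bars of 1 standard error and filled symbols for FDR under 0.05 over all genes; *S100a4* at day 0 is left out because it had 1 count. *Anxa2* moves from 2.85 at day 0 to 0.64 at day 5, whereas *Ahnak* is at 0.65 and 0.80.

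At day 5, 2 of the 10 genes were called higher in KO and 0 lower, against 1.63% of all genes called in either direction 1.31% called higher and 0.318% called lower. The median log2 fold change was 0.58 over the 10 genes and 0 over all genes. In the same libraries the naive list summed to 1213 to 1220 CPM in WT and 730.7 to 741.5 CPM in KO, and the memory and effector list to 4281 to 5322 CPM in WT and 5578 to 6103 CPM in KO. Most of the latter sum was *Nkg7*, at 3236 to 4157 CPM and not called between the genotypes. Of the 10 genes *Il2rb* was called higher in KO, and the fitted differences of *Itgb1*, *Gzmm*, *Eomes* and *Cxcr3* were below 0 and not called. The myeloid list was 34.8 to 41.7 CPM in WT and 52.3 to 73.6 CPM in KO. Most of it was *Cd68*, at 30.7 and 37.1 CPM in WT and 68.4 and 46.4 CPM in KO, while *S100a8* and *S100a9* were at 0 in all 4 libraries and *Lyz2* was at most 0.241 CPM. Of the 7 CD8+ T cell markers, whose sum was higher in both KO libraries than in both WT libraries at day 5, *Cd8a* was called higher in KO (0.60, edgeR FDR 0.0155). The part of these genes in the result was not tested.

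Culture was the larger difference for most of the 10 genes. In WT, 9 of 10 were called higher at day 5 than at day 0 and 0 lower, where 48.3% of all genes were called in either direction, 24.7% higher and 23.6% lower. In KO, 9 of 10 were called higher and 0 lower, where 50.2% were called in either direction, 26.2% higher and 24% lower. The median log2 fold change was 2.64 in WT (2.64 also with *S100a4* at its fold against the floor of 3 counts) and 2.22 in KO, beside -0.04 and -0.05 over all genes. Scaling by library totals alone moved the medians of all genes to -0.17 and -0.23. The genotype and culture comparisons share libraries, so their values are given side by side without a test of their likeness.

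*S100a6* and *S100a4* had few or no counts at day 0 and were detected in every day 5 library. *S100a6* went from 5 and 3 counts to 4188 and 2528 counts in WT and from 7 and 9 counts to 3860 and 3639 counts in KO. No day 5 library came near any day 0 library, with ratios of 856 in WT (exact 95% counting interval 434 to 1980) and 748 in KO (460 to 1310). In the fit across all genes, the log2 fold changes of *S100a6* were 9.68 (SE 0.28) in WT and 9.49 (SE 0.26) in KO (edgeR FDR 1.04e-10 and 5.27e-11). The KO value of *S100a6* was 8.72 without replicate 1 of KO at day 0 and 10.1 without replicate 2, and it was called in both. *S100a4* had 67 counts at day 5 in WT against 0 at day 0, and the exact 95% counting interval of its ratio began at 18. Against a floor of 3 counts over the day 0 group, or 0.3 CPM, its level at day 5 was 22.8-fold higher. Its place in WT relative to *Anxa2* and *Anxa1* is therefore not set. In KO its ratio was 231, from 145 counts against 1, with an exact 95% counting interval of 40.9 to 9200. Of the exon length of *S100a4*, 51.7% lies inside exons of Gm42674 on the same strand, which had 0 counts in every library. If both genes were annotated in this way for the counting, reads in that stretch would be set aside as ambiguous, and the level of *S100a4* may be understated. The reads set aside at this place were not measured.

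*Anxa2*, *Anxa1* and *Anxa4* had large differences as well. The log2 fold change of *Anxa2* from day 0 to day 5 was 6.19 (SE 0.26) in WT and 3.98 (SE 0.23) in KO (edgeR FDR 1.43e-09 and 2.13e-08). That of *Anxa1* was 5.12 (SE 0.47) and 4.34 (SE 0.33), with counting ratios of 35.7 (13.6 to 133) in WT and 20.6 (13.7 to 32.3) in KO. The WT value of *Anxa1* was 5.89 without replicate 1 of WT at day 0 and 4.72 without replicate 2, and it was called in both. That of *Anxa4* was 4.14 (SE 0.22) and 3.30 (SE 0.19). For all 3 genes the lowest day 5 library exceeded the highest day 0 library of either genotype.

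Of the other members, 4 were called higher by 2.21-fold or less in both genotypes. *S100a10* had fold differences of 2.16 in WT and 2.01 in KO, *S100a11* 2.21 and 1.96, and *Ahnak* 1.99 and 2.21, all called. Under the offset, which moved the medians of all genes to -0.19 and -0.21, the log2 fold changes of *S100a10* went from 1.11 to 0.70 in WT and from 1.01 to 0.51 in KO, both still called. *Anxa5* was 1.52-fold higher in WT (edgeR FDR 0.00134) and 1.97-fold higher in KO (edgeR FDR 2.98e-05). Under the offset the log2 fold changes of *Anxa5* went from 0.61 to 0.29 in WT, where the call was lost (FDR 0.0565, in a range from 1.61e-05), and from 0.98 to 0.58 in KO. *Anxa6* was the exception, with log2 fold changes of -0.30 (SE 0.12, edgeR FDR 0.0566) in WT and -0.06 (SE 0.12, edgeR FDR 0.694) in KO, neither called. The WT value of *Anxa6* was called as lower with library totals, with the replicate number as a block, with the offset, and without replicate 1 of WT at day 5, in an FDR range of 0.003 to 0.386. Its KO value was called as lower with the offset (FDR 0.0105, in a range up to 0.976).

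**Figure D3:**
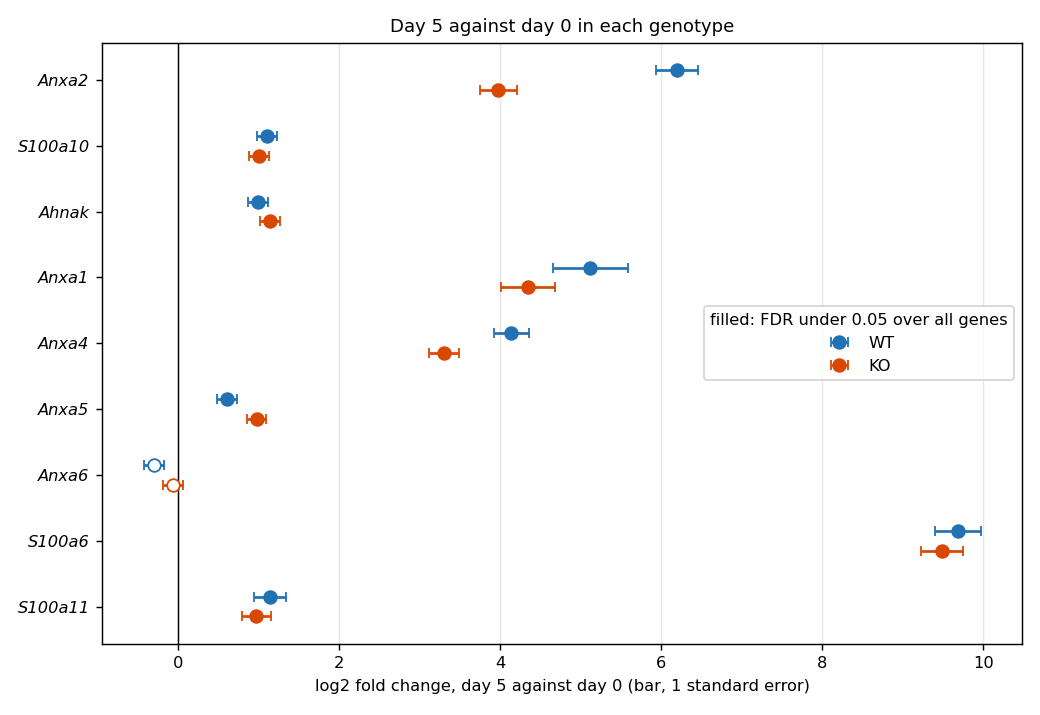
Fitted log2 fold change of day 5 against day 0 in WT (blue) and KO (orange), with bars of 1 standard error and filled symbols for FDR under 0.05 over all genes; *S100a4* is left out because it had 0 counts in WT and 1 in KO at day 0. *S100a6* is near 9.7 and 9.5, *Anxa2* is at 6.19 and 3.98, and *Anxa6* is at -0.30 and -0.06.

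The genotype by day interaction, the log2 fold change of KO against WT at day 5 minus that at day 0, was called for *Anxa2* alone among the 10 genes. It was -2.21 (SE 0.30, edgeR FDR 0.0113), where 0.159% of all genes were called in either direction, 0.0794% higher and 0.0794% lower. In *Anxa2* the day 0 level was 1.38% of the day 5 level in WT and 6.34% in KO. The interaction lay between -2.75 and -1.81 over the alternatives, and it was not called without replicate 1 of WT at day 0 (-1.81, FDR 0.0701), replicate 1 of KO at day 5 (FDR 0.0589) or replicate 2 of KO at day 5 (FDR 0.0558). The value of *Anxa4* was -0.83 (SE 0.28, edgeR FDR 0.268) and that of *Ahnak* 0.15 (SE 0.18, edgeR FDR 0.796). The other 7 genes had FDR between 0.408 and 0.936, and their intervals are wide where counts are few.

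On a scale of CPM per kb of exon, the order of the 10 genes differed between the days. The length was that of all annotated exons of a gene joined together, and which transcripts the cells express was not measured. The order, and the shares and ratios below, therefore depend on these lengths. *Anxa6* came first at day 0, with means of 325 CPM per kb in WT and 412.5 in KO, and was followed by *S100a10* (209 and 276) and *Anxa5* (140.4 and 142). At day 5 *Anxa2* came first, at 680.5 in WT and 1060 in KO. In WT it was followed by *S100a6* (493), *S100a10* (452), *Anxa6* (264) and *Anxa5* (214), and in KO by *S100a10* (555), *S100a6* (512), *Anxa6* (395) and *Anxa5* (278). Libraries of neighbours in these orders overlapped for *S100a6* and *Anxa1* in KO at day 0 and for *S100a6* and *S100a10* in WT at day 5, and for no other neighbours. *Ahnak*, whose exons span 19938 bases, was at 3.66 and 5.74 CPM per kb at day 0 and 7.29 and 12.7 at day 5, in WT and KO. It came after *Anxa2* and *S100a11* and before *Anxa4* at day 0, and only before *Anxa1* at day 5. *Anxa1* was at 5.05 and 10.3 at day 5. *S100a4* was at 11.2 and 23.2 at day 5 over its whole exon length, between *Anxa4* (23.1 and 34.5) and *Ahnak*, and at 23.2 and 47.96 over the part not shared with Gm42674, so its place against *Anxa4* depends on that length.

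Within the summed level of the 5 annexins per kb, *Anxa2* took 1.97% ± 0.89 (SD, n = 2) in WT and 10.7% ± 0.040 in KO at day 0. At day 5 it took 57.2% ± 1.9 in WT and 59.6% ± 0.37 in KO. *Anxa6* took 68.3% ± 1.1 and 65.9% ± 3.1 at day 0 and 22.2% ± 0.099 and 22.2% ± 0.41 at day 5. The sum itself was 476 ± 1.1 CPM per kb in WT and 625.5 ± 5.5 in KO at day 0, and 1186 ± 174 and 1778 ± 29 at day 5. In both genotypes most of this sum over 5 annexins was *Anxa6* and *Anxa5* at day 0, and *Anxa2* was the main part at day 5. Annexins outside the list are not in the sum. One of them, *Anxa7*, had means of 75.8 CPM in WT and 81.5 CPM in KO at day 0, and 118 and 146 CPM at day 5.

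The ratio of *Anxa2* to its partner *S100a10*, per kb and within a library, was 0.028 and 0.065 in WT at day 0 and 0.239 and 0.249 in KO at day 0. It was 1.66 and 1.35 in WT at day 5 and 1.88 and 1.94 in KO at day 5. The 4 groups did not overlap, and with these exon lengths the ratio was below 1 before culture and above 1 after it. Among 46394 genes ordered by counts per kb, *Anxa2* was at rank 5286 and 3683 in WT and 851 and 844 in KO at day 0, and at rank 56 and 70 in WT and 35 and 35 in KO at day 5. The ratio of *Ahnak* to *S100a10* was 0.0152 and 0.0203 in WT and 0.0199 and 0.0218 in KO at day 0, where the groups overlapped. At day 5 it was 0.0158 and 0.0165 in WT and 0.0231 and 0.0226 in KO, and the groups did not overlap.

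**Figure D4:**
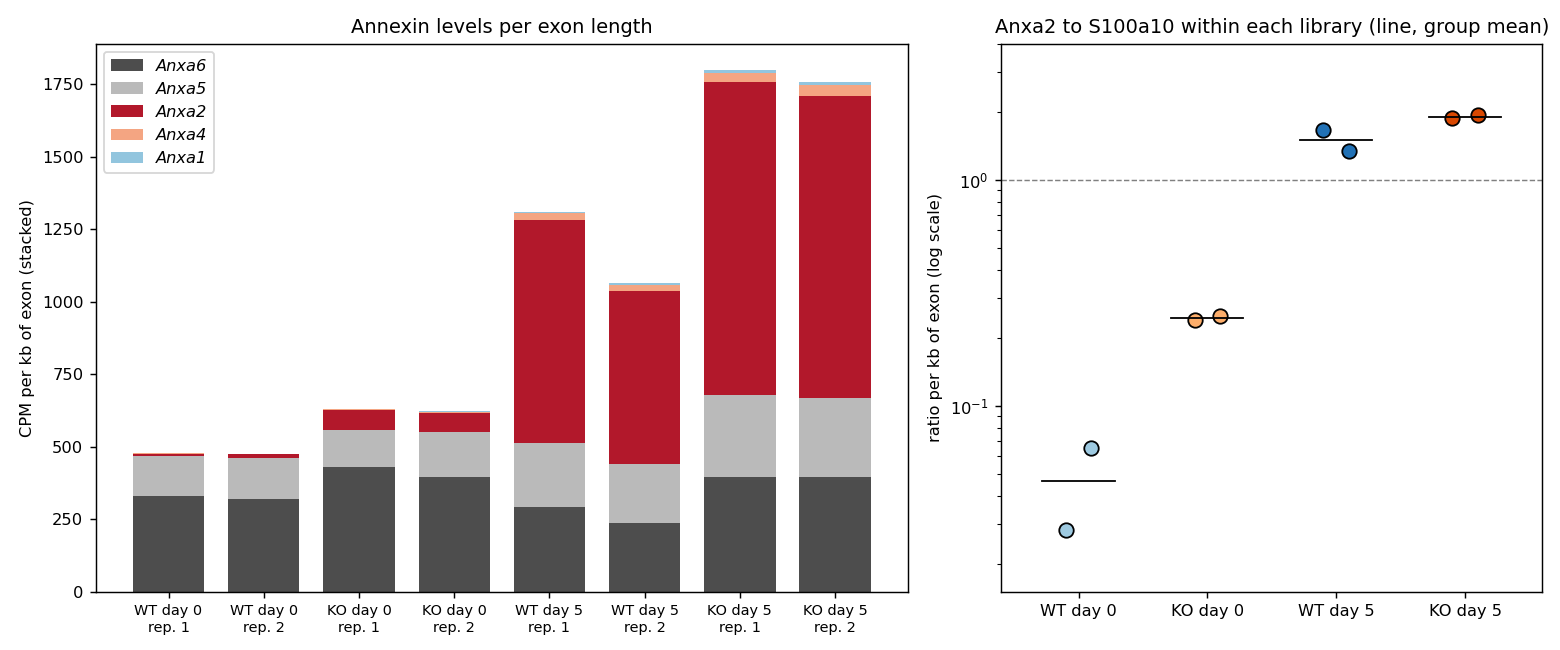
Left, stacked CPM per kb of exon of the 5 annexins in each of the 8 libraries; right, the ratio of *Anxa2* to *S100a10* per kb on a log axis, with a point per library, a line at the group mean and a dashed line at 1. *Anxa2* takes 1.97% of the sum in WT and 10.7% in KO at day 0, and at least 55.9% in each day 5 library, and the ratio passes 1 in the day 5 libraries.

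The relatives and partners of these proteins were looked at through lists drawn from knowledge of the families. Lists of other annexins, other S100 genes, AHNAK relatives and calcium channel subunits, the plasminogen system with formyl peptide receptors, membrane repair partners and cytosolic partners held 67 genes, of which 66 had a row, 62 had a count and 32 were tested. None of the 32 was called between KO and WT at day 0 or at day 5, or for the interaction, with edgeR. At an unadjusted p under 0.05, 3 of the 32 passed at day 0, 6 at day 5 and 3 for the interaction, where 13.8%, 14.1% and 12.4% of all genes did. DESeq2 called 0 at day 0, 3 at day 5 and 0 for the interaction, where it called 2.36%, 2.79% and 1.07% of all genes. With no filter on low counts, when 62 of the listed genes and 34404 genes in all were tested, edgeR called 1 at day 0 (*Arhgap18*), 3 at day 5 and 0 for the interaction, where 1.26%, 1.21% and 0.448% of all genes were called. The 3 of day 5 were by both methods *Anxa11* (1.57 in the fit reported here, FDR 0.0624), *Flna* (0.86, FDR 0.0549) and *Msn* (0.42, FDR 0.069), each with a higher fitted level in KO, and these names were chosen after their values were seen.

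Between the days, 18 of the 32 were called in WT (9 higher, 9 lower) and 23 in KO (13 higher, 10 lower), beside the shares of all genes given above, 48.3% in WT and 50.2% in KO. Of 3 other annexins tested, *Anxa7* was called higher in both genotypes, at log2 fold changes of 0.64 and 0.84, and *Anxa11* was called lower, at -2.38 and -0.88. Of 3 other S100 genes, *S100a1*, a regulator of calcium handling in muscle, was at 0.537 and 0.226 CPM in WT and 1.29 and 0.918 in KO at day 0, and at 102 and 126 in WT and 106 and 119 in KO at day 5. Its ratio of day 5 to day 0 was 281 in WT (exact 95% counting interval 109 to 1030) and 96.2 in KO (62 to 158). *S100a13* was called higher at 1.19 and 1.08, and *S100pbp*, a binding partner of an S100 protein, was called lower in KO at -0.44. Its WT value was also -0.44 but was not called. *S100a13* and *S100a1* are neighbours on chromosome 3 in the same S100 cluster as *S100a4* and *S100a6*, whereas *S100a11* and *S100a10* lie 28792 bases apart in a separate stretch.

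Of 3 AHNAK relatives and calcium channel subunits tested, *Cacnb4*, a channel beta subunit, was called higher in both genotypes (1.19 and 1.30) and *Cacnb3* in KO (3.27). *Cacnb3* had 1 and 6 counts in KO at day 0, and its WT value of 1.93 was not called. Of 3 genes of the plasminogen system and formyl peptide receptors, *Plaur*, the urokinase receptor, was called lower in both (-2.76 and -4.09) and *Plat*, tissue plasminogen activator, in KO (-3.63). *Plat* had 0 and 1 counts in KO at day 5, and its WT value of -2.75 was not called. Of 9 membrane repair and trafficking partners, WT had 3 called higher and 2 lower, and KO had 5 higher and 1 lower. *Ehd4*, an endosome ATPase, was called higher at 1.88 and 2.26, *Capn2*, a calcium-dependent protease, higher at 1.44 and 1.32, *Ehd1* lower at -1.25 and -1.17, *Capn1* lower in WT at -1.72, and *Pdcd6* higher in both at 0.43 and 0.75. *Capn1* had 6 and 4 counts in WT at day 5, and its KO value of -1.17 was not called. Of 11 cytosolic and cytoskeletal partners, WT had 2 called higher and 5 lower, and KO had 3 higher and 5 lower. *Cd44*, the hyaluronan receptor that marks activated T cells, was called higher at 3.52 and 3.82 and *Arhgap18* higher at 2.29 and 1.82. *Myh9*, the heavy chain of non-muscle myosin and a target of S100A4, was called lower at -1.70 and -1.84, *Pla2g4a*, a phospholipase, lower in WT at -2.82, and *Flna*, an actin crosslinker, lower in both at -1.52 and -1.05. *Pla2g4a* had 2 and 1 counts in WT at day 5, and its KO value of -2.17 was not called.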

How the data were processed

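Total RNA of sorted CD8+ T cells was sequenced in 8 libraries with an NEBNext Ultra kit, per the labels. The authors aligned reads with HISAT2 2.1.0 to mm10 (GRCm38) and counted them with HTSeq 0.11.1, per the submitters' processing notes, and deposited the raw counts of each gene symbol in a table per library. The annotation and the strand setting are not given in the sources used here. HTSeq sets aside reads with several alignments or in exons of several genes, so genes with copies, such as *S100a11* and its pseudogene, were counted from unique reads, and 2.63% of the exon length of *Anxa2* and 1.62% of that of *Anxa4* overlap genes of the other strand. The summary lines of HTSeq were left out, and genes held between 21.2% and 24.5% of the records of a library.

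Groups were taken from the sample titles. The labels do not say that libraries of a group came from separate animals, so p-values measure the spread between these libraries, which may be technical. Replicates differed by more than sampling noise (chi-square over degrees of freedom from 4.69 to 9.40). With 2 libraries per group, errors were estimated by the model below.

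A quasi-likelihood model was fitted to all 8 libraries in edgeR 4.0.16 (legacy form, R 4.3.3) with a mean per group, TMM factors and the default filter (minimum count 10), which left 12597 genes. P-values were two-sided and adjusted by the Benjamini-Hochberg method over these genes (FDR), and genes with FDR under 0.05 were called. The common biological coefficient of variation was 15.0%. SE was the absolute log2 fold change divided by the square root of the F statistic. CPM used the TMM-scaled library size. Exon lengths came from GENCODE M21, to which 46394 symbols matched. Counting intervals were exact at 95%. The alternatives were DESeq2 size factors, library totals, no filter, the edgeR 4 form, DESeq2 1.42.0, the replicate number as a block, only the 4 libraries compared, and each library left out in turn. An offset that corrects each library for GC content and length by loess (span 0.3, 96.86% of tested genes having both values) was chosen after seeing the data, as were the further settings for the lists of relatives and partners.

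The members and lists were chosen with earlier results of these data known. All 10 members were named in every comparison. From each list of relatives and partners and in each comparison, up to 4 called genes with the largest absolute log2 fold change were named, and marker lists were summed. The genes most like *Anxa2* were the 5 with at least 10 CPM on average and the highest Pearson correlation of log2 CPM (prior count 2).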

Additional observations from a re-analysis of the deposited data

Results flagged for a closer look

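The genotype by day interaction of *Anxa2* was picked out because the interaction term of the edgeR fit was called, where 0.159% of all genes were called. The list was selected on the CPM of these same libraries at the 2 days, so the call is a description and no separate support. Its log2 value was -2.215 (FDR 0.0113), with KO above WT by 2.85 on the log2 scale at day 0 and by 0.64 at day 5. All 4 KO libraries lay above both WT libraries of the same day. The value was not called without replicate 1 of WT at day 0 (-1.81, FDR 0.0701), in which *Anxa2* was at 24.0 CPM beside 46.1 CPM in replicate 2, nor without either KO library of day 5 (FDR 0.0589 and 0.0558), in an FDR range of 8.25e-30 to 0.0701.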

How the results depend on the processing

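Counting each member in each comparison under each setting, 746 values neither changed sign nor side of the threshold (*S100a4* at day 0 was at 0 without replicate 1 of KO at day 0), 22 lost a call, 9 gained one and 7 changed sign. Members called at day 0 numbered 3, 2 with the GC and length offset, and between 1 and 4 with a library left out. At day 5 the 2 members called became 4 with no filter on low counts, 3 with the edgeR 4 form, 1 with only the 4 libraries compared and 1 with the GC and length offset, and between 0 and 2 with a library left out. The 1 member called for the interaction became 0 or 1 with a library left out. Of the listed relatives, 0 were called at day 0 and 1 with no filter, and 0 at day 5, where no filter gave 3, DESeq2 gave 3, the edgeR 4 form gave 1, and leaving out a library gave 0 or 1 (*Hltf*, lower in KO without replicate 1 of WT at day 5). The sign changes, all in values that were not called, came from leaving out a library. With the lowest and highest value over the libraries left out, they were *Anxa5* at day 0 (-0.080 to 0.13) and *S100a6* at day 0 (-0.37 to 1.02) and for the interaction (-0.97 to 0.41), lowest or highest without replicate 2 of KO at day 0, *S100a6* at day 5 (-0.078 to 0.21) without replicate 2 of WT at day 5, *Anxa6* in culture in KO (-0.12 to 0.0072) and *S100a4* for the interaction (-1.36 to 1.01) without replicate 1 of KO at day 0, and *S100a10* for the interaction (-0.24 to 0.025) without replicate 2 of WT at day 0. The cause was not tested. Over all genes, the calls of 227 at day 0, 205 at day 5 and 20 for the interaction became 434, 418 and 154 with no filter, 297, 351 and 135 with DESeq2, and 181, 117 and 11 with the offset, and ranged from 38 to 276, 32 to 249 and 0 to 41 with a library left out.

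The replicate numbers 1 and 2 give 2 pairs per comparison and no label ties them to a shared animal or day, and the correlation of paired deviations lay between -0.0742 and 0.228. With the replicate number as a block, 3 members were called at day 0, 2 at day 5, 10 for culture in WT (*Anxa6* lower in addition), 9 for culture in KO and 1 for the interaction, where 216, 215, 5999, 6291 and 29 of all 12597 genes were called. At the depths here *S100a4*, *S100a6* and *Anxa1*, with at most 17 counts in a day 0 library, allow no fine comparison of genotypes before culture.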

Other observations

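Outside the families, the genes whose levels over the 8 libraries were most like those of *Anxa2*, among 7995 genes with at least 10 CPM on average, were *Ube2l6*, *Serpina3g*, *Tcrg-C2*, *Morc1* and *Trgv2*. Their Pearson correlations of log2 CPM with *Anxa2* were 0.998, 0.995, 0.994, 0.993 and 0.992 over 8 libraries that fall into 4 groups and share the step between the days, so they are a description. *Ube2l6*, an enzyme that attaches ISG15, was at 2.86 and 4.52 CPM in WT and 14.2 and 13.03 CPM in KO at day 0, and at 80.1 and 52.1 CPM in WT and 92.3 and 86.0 CPM in KO at day 5. *Serpina3g*, a protease inhibitor gene of a family with close copies, was at 0.179 and 0.452 CPM in WT and 19.5 and 9.18 CPM in KO at day 0, and at 458 and 213 CPM in WT and 876 and 759 CPM in KO at day 5. All of the genes named had KO libraries above WT libraries at each day, as *Anxa2* did, and they were picked for their likeness to it. Of all genes tested, 21.7% at day 0 and 25% at day 5 were higher in KO without overlap. *Tcrg-C2* and *Trgv2* belong to T-cell receptor gamma segments with near-identical copies, so their counts are uncertain.

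Among the members, *Anxa4* was the most like *Anxa2*, at a correlation of 0.986, which 7 of the 7995 genes reached. *Anxa1* followed at 0.967, *S100a10* at 0.966 and *S100a11* at 0.957. *Ahnak* and *S100a4* were at 0.931, *S100a6* at 0.927 and *Anxa5* at 0.892, a level that 11.8% of the 7995 genes reached. *Anxa6* stood apart at -0.076.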
